A study of Arabidopsis thaliana with 4 samples.

Results

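The genes described here encode SWEET sugar transporters of Arabidopsis thaliana. A gene was included if the array annotation gave one of its probe sets to that gene alone, under a symbol made of SWEET and a number, and if its signal lay above a floor on at least 1 array. SWEET16 was left out because it lies in a stretch of chromosome 3 with raised signals in the transgenic line. Of 13 such genes with a probe set, 7 passed: SWEET1, SWEET2, SWEET3, SWEET10, SWEET11, SWEET13 and SWEET17. They stand among 13350 genes with a probe set of their own, and each had 1 probe set.

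Transcript levels were measured in whole seedlings of the Landsberg erecta (Ler) wild type and of a GR-REV line in the Ler background, grown for 10 days in shaken liquid MS medium with glucose under continuous light. GR-REV carries REVOLUTA, an HD-ZIPIII transcription factor, fused to the glucocorticoid receptor domain, with its microRNA site mutated, under the constitutive viral CaMV35S promoter. Dexamethasone, a synthetic glucocorticoid, was given at 50 µg/ml in 0.1% ethanol for 1 h, and mock flasks received 0.1% ethanol alone. There was 1 flask and 1 Affymetrix ATH1 array for each of the 4 groups, which combine a genotype with a treatment. The labels of both GR-REV arrays contradict themselves: title and treatment protocol name one treatment, the source name the opposite one. Titles and protocols were followed, and under the source names each dexamethasone difference within GR-REV changes its sign. Genotype comparisons that pool the treatments do not depend on this, since each genotype keeps the same 2 arrays. Genotype differences within the mock or the dexamethasone arrays do depend on it and follow the titles. So does the error of a genotype fit that includes treatment.

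SWEET proteins are membrane channels that let sugars move down their concentration gradient, unlike the proton-driven sucrose and hexose carriers. In Arabidopsis they fall into 4 clades: members of the first and second carry mostly hexoses, those of the third mostly sucrose, and those of the fourth sit in the vacuolar membrane. They are known for sucrose release to the phloem in leaves, for nectar secretion, for feeding of pollen and seeds, and for sugar storage in root vacuoles. Whether REVOLUTA acts on any of these genes within 1 h is the question that the design poses for them.

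Values are deposited MAS5 signals, in linear units scaled to a common trimmed mean of 500.05 to 500.06 per array. The floor was the 40th percentile of all signals, 91.4, and lower signals were raised to it before taking log2. The wild type mock array had 62.9% of probe sets above the floor and the others 58.9% to 59.2%. The median signal was 181 on wild type mock and 156 to 163 on the others. Of the tissue markers, only RCA, EXPA7 and SWEET8 could be matched to a probe set. RCA, the Rubisco activase of green tissue, was between 18365 and 28804 on the 4 arrays, while EXPA7, an expansin of root hairs, was below the floor on all of them, between 45.3 and 75.7. In whole seedlings, fewer cells of a type and less RNA per cell cannot be told apart.

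SWEET10 separated the genotypes most. It is a sucrose-type SWEET of the third clade, known for its induction by the flowering signal FT at the floral transition. Its signal was 547 in mock-treated and 208 in dexamethasone-treated wild type, 62.3 in GR-REV mock and 20.9 in GR-REV dexamethasone. Both wild type arrays were thus above the floor and both GR-REV arrays below it, with no overlap. SWEET10 was at least 3.69-fold lower in GR-REV over both treatments, at least 5.98-fold lower among the mock arrays and at least 2.28-fold lower among the dexamethasone arrays.

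The mean log2 signal of SWEET10 as measured was 8.40 on the wild type and 5.17 on the GR-REV arrays. With the GR-REV values at the floor the difference was -1.88, a bound with no error of its own, because both arrays of that arm take the same value. In the limma fit across 14034 probe sets it did not pass (adjusted p = 0.130). SWEET10 entered that fit only through the 2 wild type arrays where it was high. Of the 15174 probe sets that passed the floor at least once, 2.22% were above it on both wild type arrays and on neither GR-REV array, and 1.03% had a floored genotype difference of that size or more.

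**Figure D1:**
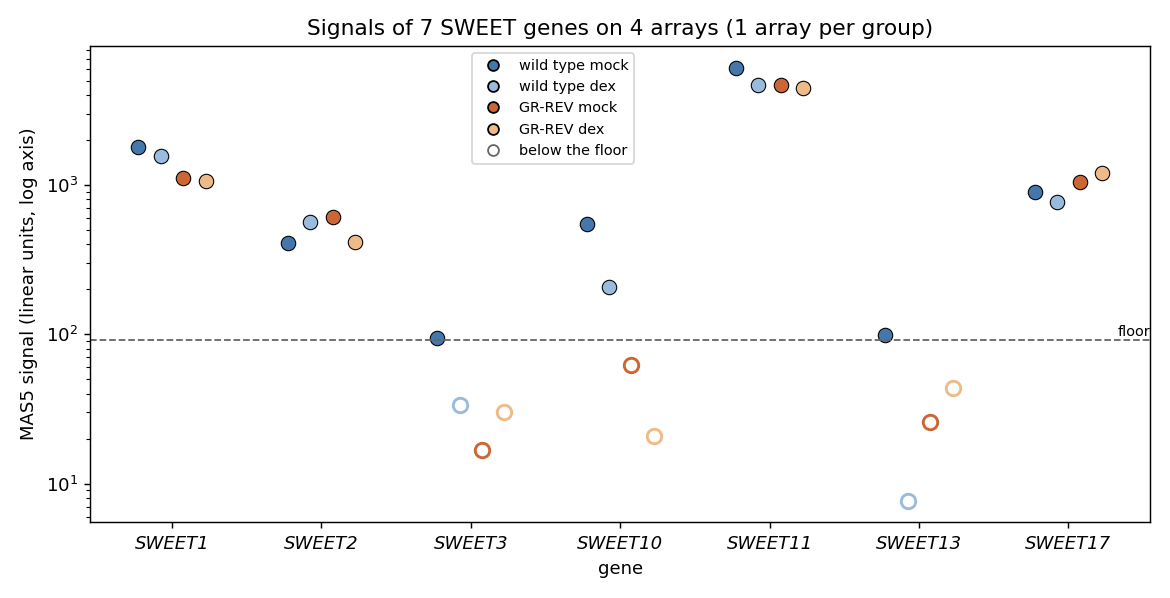
MAS5 signal of each of 7 SWEET genes on each of the 4 arrays, on a log axis. Filled points lie above the floor of 91.4 (dashed line) and open points below it. SWEET10 is above the floor on the 2 wild type arrays, at 547 and 208, and below it on both GR-REV arrays.

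SWEET1 also had lower signals on both GR-REV arrays than on both wild type arrays. It is a hexose facilitator of the plasma membrane, of the first clade, known mainly for carrying glucose. Its signal was 1800 in mock-treated and 1571 in dexamethasone-treated wild type, 1109 in GR-REV mock and 1066 in GR-REV dexamethasone. The genotypes did not overlap, and the gap between them was wider than the gap between the 2 arrays of either genotype. The difference was -0.63 ± 0.16 (SE, 2 against 2 arrays) on the log2 scale, or 1.55-fold lower in GR-REV, with a 95% confidence interval of -1.04 to -0.22. It did not pass limma (adjusted p = 0.146, unadjusted p = 0.0097). It was -0.70 among the mock arrays and -0.56 among the dexamethasone arrays. As many as 15.3% of probe sets had a genotype difference of this size or more.

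SWEET11 releases sucrose from phloem parenchyma cells of the leaf, the step before active loading into the phloem. Its signal was 6115 in mock-treated and 4710 in dexamethasone-treated wild type, 4682 in GR-REV mock and 4476 in GR-REV dexamethasone. One array, wild type mock, stood above 3 that lay close together. The genotype difference was -0.23 ± 0.20 (SE, 2 against 2 arrays; limma adjusted p = 0.647), with a 95% confidence interval of -0.72 to 0.26. Without the wild type mock array it was -0.04. Wild type mock was also the highest array for 30.6% of the 12252 probe sets above the floor on all 4, and for 2 of the 4 such SWEET genes, SWEET1 and SWEET11.

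SWEET17, of the fourth clade, is a fructose facilitator of the vacuolar membrane. Its signal was 902 in mock-treated and 772 in dexamethasone-treated wild type, 1039 in GR-REV mock and 1208 in GR-REV dexamethasone. Both GR-REV arrays lay above both wild type arrays. The genotype difference was 0.43 ± 0.18 (SE, 2 against 2 arrays), or 1.34-fold higher in GR-REV, and did not pass (limma adjusted p = 0.338), with an interval of -0.03 to 0.88. In the dexamethasone arrays alone it was 0.65, against 0.20 in the mock arrays.

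SWEET2, a first-clade member of the vacuolar membrane, is known for keeping sugar in root cells. Its signal was 407 in mock-treated and 564 in dexamethasone-treated wild type, 609 in GR-REV mock and 415 in GR-REV dexamethasone. The genotypes overlapped: GR-REV was higher among the mock arrays, by 0.58 on the log2 scale, and lower among the dexamethasone arrays, at -0.44. The mean genotype difference was 0.07 ± 0.29 (SE, 2 against 2 arrays; limma adjusted p = 0.937), with an interval of -0.64 to 0.78. Its direction rested on single arrays, at -0.16 without wild type mock and -0.21 without GR-REV mock.

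The limma genotype test could be run on 5 of the 7 genes, those above the floor on at least 2 arrays, and called 0 of them, beside 1.77% of all 14034 probe sets. At an unadjusted p under 0.05 there were 2, SWEET1 and, with its GR-REV values at the floor, SWEET10, beside 16.4% of all probe sets. With treatment as a term the fit called 7.1% of all probe sets. Among the SWEET genes it called SWEET10, whose difference is a bound set by the floor, and not the other 4. At least 2-fold apart between genotypes was 1 of the 7, SWEET10, beside 5.92% of those 15174 probe sets, 2.61% lower as it was. The median genotype difference of the 4 genes above the floor on all arrays was -0.08, against -0.01 for the 12252 such probe sets. Both GR-REV arrays lay below both wild type arrays for SWEET1 and SWEET11 and above them for SWEET17, which are arrangements that 22.9% and 22.8% of those probe sets showed.

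**Figure D2:**
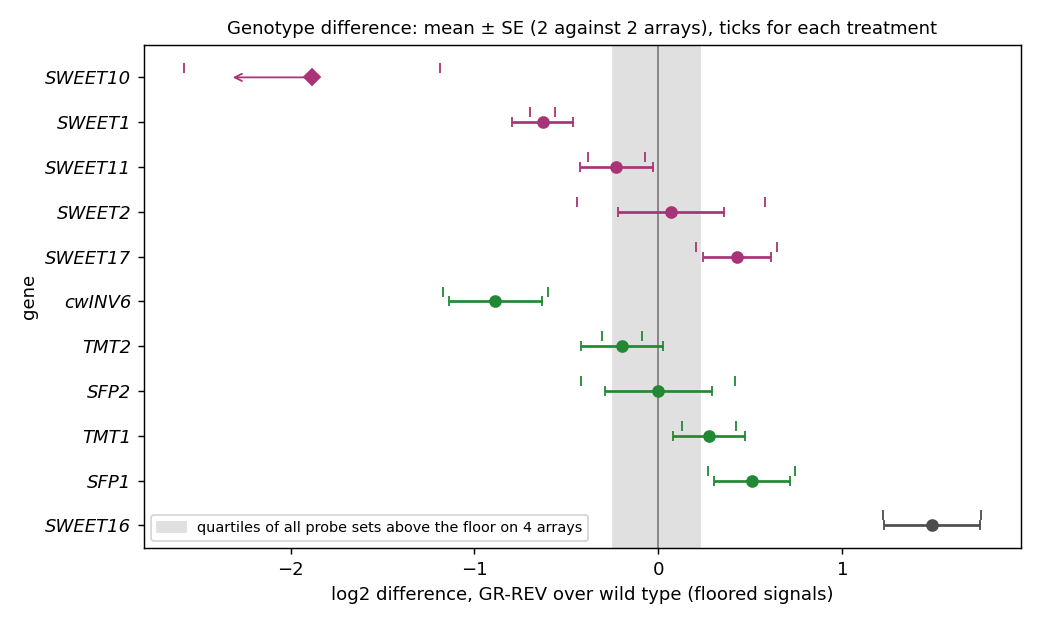
Genotype difference on the log2 scale, GR-REV over wild type, for 5 SWEET genes (purple), 5 other sugar genes (green) and SWEET16 (grey). Points and bars are the mean difference of 2 against 2 arrays and its moderated SE from limma. The small ticks above each point give the mock and dexamethasone arrays separately. The grey band spans the quartiles of all probe sets measured on every array, -0.25 to 0.23. SWEET10 (diamond with an arrow and no error bar) is a bound, since both its GR-REV values are at the floor.

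SWEET3, of the first clade, and SWEET13, a third-clade sucrose transporter that with SWEET14 is also known to carry gibberellin in anthers, entered through the wild type mock array alone. SWEET3 had signals of 94.9 in mock-treated and 33.7 in dexamethasone-treated wild type, 16.8 in GR-REV mock and 30.3 in GR-REV dexamethasone. SWEET13 had 98.3, 7.68, 25.9 and 43.6 in the same order. Both were barely above the floor on 1 array and below it on 3, as 4.46% of the 15174 probe sets were on wild type mock, so they were not tested and no difference could be measured. SWEET13 is the next gene after SWEET10 on chromosome 5 in the RefSeq annotation.

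The threshold fell between SWEET3, with a highest signal of 94.9, and SWEET9, with 64.9. Below the floor on every array were SWEET4, a hexose transporter, with a highest signal of 64.8, SWEET6 with 43.3, SWEET7 with 33.7, SWEET8, known from pollen development, with 48.0, SWEET9, the sucrose exporter of nectaries, and SWEET14 with 52.7. SWEET5 and SWEET15, listed on the array as AtVEX1 and SAG29, did not meet the rule on symbols and were below the floor as well, with highest signals of 83.7 and 47.6. SWEET12, the partner of SWEET11 in sucrose release to the phloem, was not analysed here. For these 8 genes with a probe set no difference between groups was measurable.

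Within wild type, dexamethasone went with a lower SWEET10 signal. The 547 of the mock array stood against 208 after dexamethasone, 2.63-fold lower or -1.39 on the log2 scale, with both values above the floor. This was 1 of 7 genes past 2-fold in wild type, where 3.34% of the 15174 probe sets were, 2.51% of them lower and 0.83% higher. A difference of that size or more was seen in 0.745% of probe sets. With 1 array per group there is no replicate error and no test. In GR-REV both arrays were below the floor, so the same response could not be measured there.

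The other genes differed less between dexamethasone and mock. In wild type the log2 difference was 0.47 for SWEET2, -0.20 for SWEET1, -0.38 for SWEET11 and -0.23 for SWEET17. In GR-REV it was -0.55 for SWEET2, -0.06 for SWEET1, -0.07 for SWEET11 and 0.22 for SWEET17. Of these 4 genes, 0 were past 2-fold in GR-REV, where 3.64% of probe sets were; the other 3 were at the floor on both GR-REV arrays and had no measurable difference. SWEET2 was thus 1.38-fold higher after dexamethasone in wild type and 1.47-fold lower in GR-REV, where 14.6% of probe sets differed by that much or more.

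SWEET2 and SWEET17 had opposite signs in the genotypes, as 40.6% did of the 12252 probe sets measured on every array. With the treatments of the source names, SWEET2 had 0.47 in wild type and 0.55 in GR-REV, and SWEET17 -0.23 and -0.22, so each then had the same sign in both genotypes. With each array divided by its median, the wild type difference of SWEET17 was only -0.01, against 0.20 in GR-REV by the titles and hence of the other sign by the source names. SWEET1 and SWEET11, in the main scaling with the treatments of the source names, had opposite signs, at -0.20 and 0.06 and at -0.38 and 0.07. That was so for 59.4% of the 12252 probe sets.

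**Figure D3:**
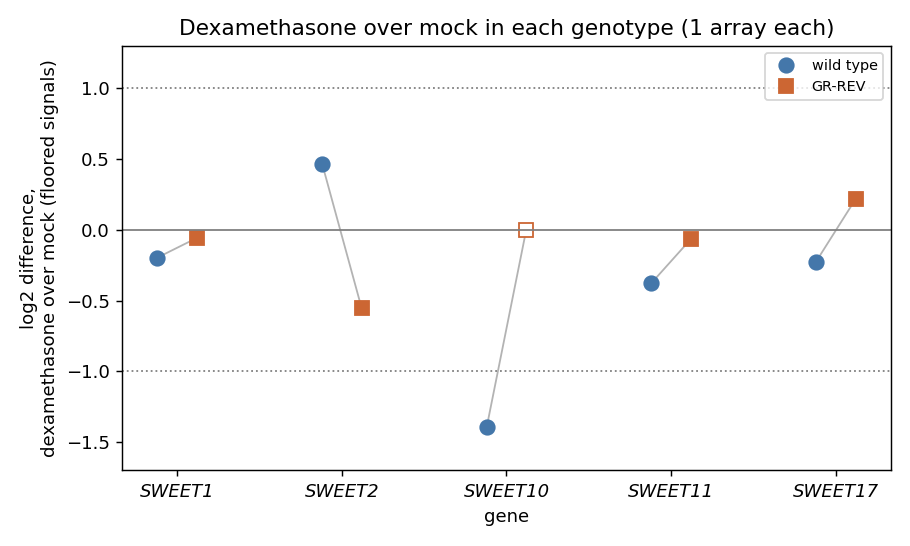
Log2 difference between the dexamethasone and the mock array in wild type (circles) and in GR-REV (squares) for 5 SWEET genes, with dotted lines at 2-fold. SWEET10 lies at -1.39 in wild type, and its open square marks 2 GR-REV arrays at the floor. SWEET2 and SWEET17 cross 0 between the genotypes.

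Over both genotypes, the limma treatment test with genotype as a term called 0 of the 5 tested genes, beside 0.0428% of 14034 probe sets, and 0 at an unadjusted p under 0.05, beside 11.5% of them. For the 4 genes measured on every array, differences ran from -0.22 ± 0.18 (SE, adjusted p = 0.685) for SWEET11 to -0.004 ± 0.18 (adjusted p = 0.994) for SWEET17. With the treatments of the source names SWEET2 had 0.51 ± 0.29 (adjusted p = 1.00, limma).

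SWEET16, a vacuolar-membrane sugar channel left out by the rule, had 223 in mock-treated and 157 in dexamethasone-treated wild type, against 520 in GR-REV mock and 529 in GR-REV dexamethasone. Its genotype difference was 1.49 ± 0.26 (SE, limma adjusted p = 0.0622, and 0.0169 with treatment as a term). The median over the 20 nearest measured genes in locus order was 1.1, with a range of -2.48 to 2.15. SWEET16 was left out because it lies in that raised stretch, so the raised median around it restates the rule. Around the included genes that could be tested, this median was -0.02 for SWEET1, -0.05 for SWEET2, 0.01 for SWEET10, 0.02 for SWEET11 and -0.02 for SWEET17. The contrast with SWEET16 is therefore set by the choice of genes, and no conclusion is drawn from it. SWEET10 lay below all of its 20 neighbours, whose lowest was -1.56. Neighbours had to be above the floor on every array, a rule that SWEET10 itself, below it on both GR-REV arrays, did not meet. Any nearby gene below the floor in GR-REV was thus left out, as was SWEET13, the next gene. The rank of SWEET10 is therefore partly set by this rule, and no conclusion is drawn from it. SWEET2, on the same chromosome as SWEET16, lay within the range of its neighbours, -0.69 to 0.81.

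**Figure D4:**
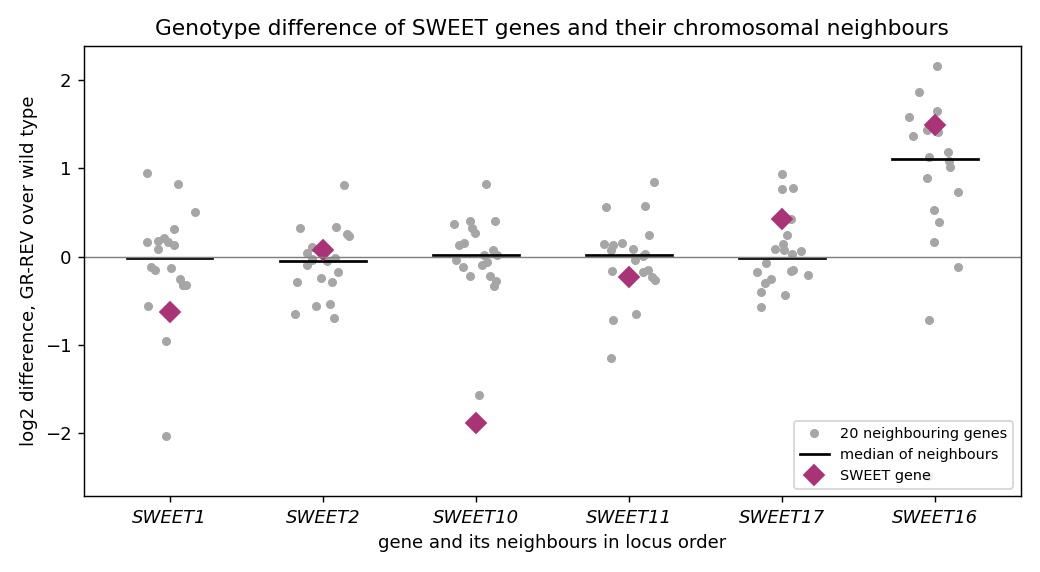
Genotype difference on the log2 scale, GR-REV over wild type, for 6 SWEET genes (diamonds), the 20 nearest genes above the floor on all 4 arrays in locus order (grey points, spread sideways for display) and their median (bar). The genes around SWEET16 have a median of 1.1 and a range of -2.48 to 2.15, and the medians around the other genes are close to 0. SWEET16 was left out for lying in this raised stretch, so the contrast restates the rule.

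Other steps of sugar movement were represented by 6 genes with a probe set. These were the vacuolar monosaccharide carriers TMT1, TMT2 and TMT3, the sugar porters SFP1 and SFP2, and cwINV6, of the cell wall invertase family. The listed sucrose carriers, proton-driven hexose carriers, polyol carriers, sucrose synthases and plastid exporters were not analysed here. Of the 5 above the floor, limma called 0 for genotype and 0 for treatment, beside 1.77% and 0.0428% of all 14034 probe sets. None was 2-fold apart between the genotype means, where 5.92% of the 15174 probe sets were. None was so in a dexamethasone pair, beside 3.34% of them in wild type and 3.64% in GR-REV. The largest genotype difference was that of cwINV6, with signals of 239 and 223 in wild type mock and dexamethasone and 106 and 147 in GR-REV mock and dexamethasone. It was -0.89 ± 0.25 (limma adjusted p = 0.173, unadjusted p = 0.0139). Among the mock arrays it was -1.17, or 2.25-fold lower in GR-REV, and among the dexamethasone arrays -0.60. A difference of that size or more among the mock arrays was seen in 5.27% of the 15174 probe sets. The GR-REV mock signal of 106 was close to the floor of 91.4. SFP1 followed at 0.51 ± 0.21 (adjusted p = 0.312), and TMT1, TMT2 and SFP2 lay between -0.20 and 0.28. TMT3 was below the floor throughout, with a highest signal of 90.3.

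The named genes most like SWEET10, by distance between mean-centred log2 values over the 4 arrays, were AT2G35820 (distance 0.44), AT3G28220 (0.47) and ALN (0.51), which encodes allantoinase of purine breakdown. They were the nearest among 6517 single-gene probe sets measured on every array, with SWEET10 at the floor on 2. Its GR-REV values entered as the floor and not as the measured 62.3 and 20.9. A gene that, like SWEET10, was below the floor in GR-REV could not be chosen, so the ranking is partly set by this rule. ALN had 642 in mock-treated and 379 in dexamethasone-treated wild type, 118 in GR-REV mock and 149 in GR-REV dexamethasone. For SWEET1 the nearest were AT5G05710 (distance 0.05), AT5G04060 (0.08) and AT1G31130 (0.08), and AT5G05710 had 775, 666, 469 and 439 in that order. With 4 arrays such likeness is a description only.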

How the data were processed

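Signals of 22810 probe sets on 4 ATH1 arrays were used, 1 per group. The authors deposited linear intensity values made with MAS5, per the submitters' processing notes; no version is given in the sources used here. The settings files hold no RNA measurements and gave only chip type and module. Every array had a different fluidics module, so an effect of the module and of the group cannot be told apart. From the intensities, 64 control probe sets were left out, the floor was applied, and log2 was taken. Of 22746 probe sets, 13513 had 1 gene, 503 several and 8730 none listed, and 13436 matched RefSeq (TAIR10.1), used for names and gene order.

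Genotype (2 against 2 arrays) and treatment (with genotype as a term) were tested by moderated linear models (limma 3.58.1, lmFit and eBayes with a mean trend; R 4.3.3) for probe sets exceeding the floor on 2 or more arrays, with Benjamini-Hochberg adjustment and a threshold of 0.05. The labels name 1 flask per group, so the spread in the genotype test is that between the mock and the dexamethasone flask of a genotype. Each SE and confidence interval is that of the moderated fit, which draws on the spread of all probe sets tested. Single pairs have no test, and 2-fold was the rule of size. A fold against the floor is written "at least". The test was checked on simulated data. The number of arrays limits the precision.

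The genes, lists and tests were chosen with earlier results of these data known. All SWEET genes with a probe set were named, list genes by size of difference, and the 3 most alike genes by distance for the 2 genes with the widest range. The neighbouring genes were added after the results were seen. Alternatives were other floors, an added floor value, quantile and median scaling, other fits, other fold thresholds, left-out arrays and the treatments of the source names.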

Additional observations from a re-analysis of the deposited data

Results flagged for a closer look

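The dexamethasone difference of SWEET2 had opposite signs in the genotypes, 0.47 in wild type and -0.55 in GR-REV on the log2 scale, so that GR-REV minus wild type was -1.02. That of SWEET17 was -0.23 in wild type and 0.22 in GR-REV, a gap of 0.44; with each array divided by its median these were -0.01 and 0.20. Each value comes from 1 array per group and the difference was not tested. With the treatments of the source names both genes had like signs in the genotypes.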

How the results depend on the processing

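The limma genotype test called 0 of the 5 tested SWEET genes under every alternative except treatment as a term, which called 1, SWEET10 (adjusted p = 0.0254), whose GR-REV values are both at the floor and so lend that arm no spread; with any 1 array left out the count was 0 to 0. The treatment test called 0 under each alternative run. SWEET10 was the 1 gene past 2-fold between genotypes in the main setting, with any array left out (1 to 1), and with other scalings; with a floor at the 60th percentile there were 0, and at 1.5-fold 2, with SWEET1. Its genotype difference, a bound set by the floor, ranged from -2.80 to -1.19 over alternatives and its adjusted p from 0.0254 to 0.578; it was not tested with the floor at the 60th percentile. Without wild type mock it was -1.19 and without wild type dexamethasone -2.58. For SWEET1 the range was -0.73 to -0.53 (adjusted p 0.0574 to 0.540). SWEET2 changed direction without wild type mock (-0.16) or GR-REV mock (-0.21), and was 0.30 and 0.35 without the wild type and GR-REV dexamethasone arrays. In wild type, genes past 2-fold with dexamethasone numbered 3 with a floor at the 25th percentile (SWEET3, SWEET10, SWEET13), 0 at the 60th, where SWEET10 was at -0.999 on the log2 scale, and 0 at 3-fold. Division by the median moved the median of all probe sets in the wild type pair from -0.06 to 0.15 and SWEET1 from -0.20 to 0.01 and SWEET17 from -0.23 to -0.01. Each gene had 1 probe set, so no other probe set could be tried. The fit with treatment as a term compares the genotypes within each treatment. No pairing by replicate number was possible because each group has 1 array and the labels give no such numbers.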
